A study of Mus musculus with 30 samples.

Results

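The genes described here were the components of the surrogate light chain and other genes of early B cell development on the arrays of a mouse B-cell lymphoma treated with mafosfamide. The members were the 10 genes Igll1, Vpreb1, Vpreb3, Rag1, Rag2, Dntt, Bst1, Flt3, Il7r and Kit, of 19937 genes on the array that could be named and tested. Each was read from the probe set whose platform annotation held that symbol alone, and each of the 10 had exactly 1 such probe set. Expression was measured on 30 Affymetrix Mouse Gene ST 1.0 arrays, and all values below are log2 expression values, so that a difference of 1 is a 2-fold change.

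All cells carried the Eµ-Myc transgene, which drives Myc from an immunoglobulin heavy chain enhancer in B-lineage cells, on a Cdkn2a-/- C57BL/6J background. They were grown in flasks with irradiated Cdkn2a-/- mouse embryonic fibroblasts, so that RNA of the feeder cells may be part of each sample. The parental line, derived from 1 lymphoma, was measured untreated at 0 h (5 arrays) and after 6 h (4 arrays), 12 h (4 arrays), 24 h (5 arrays) and 48 h (5 arrays) of 750 nM mafosfamide, an alkylating agent related to cyclophosphamide that needs no activation in the liver. The resistant lines R100, R500, R1000 and R4000 came from successive steps of 1 dose escalation, named by the dose in nM, and were measured untreated (1 array each); R500, R1000 and R4000 were also measured after 24 h of 750 nM mafosfamide (1 array each). The p-values therefore measure the spread between cultures of 1 lymphoma, and the lines are not independent derivations. The sample descriptions number the parental arrays from 1 to 5, with no number 1 at 6 h and 12 h. These are called culture numbers below. That equal numbers at different times are the same culture was inferred from their deviating together, and is not stated by the labels.

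In early B cell development the RAG1 and RAG2 proteins form the recombinase that cuts immunoglobulin gene segments, and terminal transferase, the product of Dntt, adds bases at the joints. Once the heavy chain is made it pairs with the surrogate light chain, built of λ5 (Igll1) and VpreB (Vpreb1), to form the pre-B cell receptor, whose signal drives expansion and then silences the surrogate light chain genes. Vpreb3 encodes a related protein that stays inside the cell and binds heavy chains. The receptors encoded by Il7r, Flt3 and Kit receive growth and survival signals at these stages, and Bst1 encodes BP-3, a surface enzyme of early B cells and of stromal cells. Igll1, Vpreb1 and the Rag genes are known targets of the E2A proteins, which bind E-boxes, DNA motifs of the form CANNTG.

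The promoters of Igll1 and Vpreb1 are shown because these genes rose with treatment, that of Vpreb3 as the member of the family that passed no test, and that of Rag1 because its values were lower at late times. Each run is the 250 bases before the RefSeq transcript start in build GRCm38.p6, 5′ to 3′ on the gene's strand, with every CANNTG in capitals. The windows are chr16:16863986-16864235 for Igll1 and chr16:16869256-16869505 for Vpreb1, both on the minus strand, chr10:75948050-75948299 on the plus strand for Vpreb3, and chr2:101649533-101649782 on the minus strand for Rag1.
Igll1: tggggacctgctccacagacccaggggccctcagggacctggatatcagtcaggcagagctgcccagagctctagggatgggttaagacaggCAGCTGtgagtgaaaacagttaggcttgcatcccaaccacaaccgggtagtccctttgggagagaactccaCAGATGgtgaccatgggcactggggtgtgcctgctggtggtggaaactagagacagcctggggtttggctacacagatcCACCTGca
Vpreb1: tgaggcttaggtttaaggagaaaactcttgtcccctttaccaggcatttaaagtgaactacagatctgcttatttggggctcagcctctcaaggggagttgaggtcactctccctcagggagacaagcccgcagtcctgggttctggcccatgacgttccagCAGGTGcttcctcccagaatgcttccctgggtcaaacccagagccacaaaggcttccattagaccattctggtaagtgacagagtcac
Vpreb3: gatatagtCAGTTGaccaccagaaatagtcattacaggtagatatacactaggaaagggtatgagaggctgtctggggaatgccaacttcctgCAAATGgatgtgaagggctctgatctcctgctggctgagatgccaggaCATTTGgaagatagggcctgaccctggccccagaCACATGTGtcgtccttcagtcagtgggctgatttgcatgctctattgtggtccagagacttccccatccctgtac
Rag1: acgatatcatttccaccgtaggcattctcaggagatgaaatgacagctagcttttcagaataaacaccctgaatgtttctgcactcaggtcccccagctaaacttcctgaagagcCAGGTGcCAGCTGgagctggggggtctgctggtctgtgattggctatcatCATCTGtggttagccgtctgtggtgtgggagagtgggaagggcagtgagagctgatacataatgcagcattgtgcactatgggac
The transcript starts of Igll1 and Vpreb1 lie 5270 bases apart, and those of Rag1 and Rag2 lie 24820 bases apart.

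Of the 10 members, 9 had a promoter entry in the RefSeq table, and Bst1 had none. The E-box CAGGTG, searched on both strands, was found in the windows of Igll1, Vpreb1 and Rag1 and in none of the other 6 members with an entry. It is held by 17.2% of all 32851 windows of the same length. In the Igll1 window it reads CACCTG, the same motif on the other strand, and its last base is base 3 before the start. The E-box CAGCTG was found in the windows of Igll1 and Rag1, and is held by 13.0% of all windows. The Vpreb3 window held 5 matches to CANNTG, of which the last 2 overlap, but neither of these E-boxes, and 66.2% of all windows hold CANNTG. A match describes the letters of the window and does not show that a protein binds there.

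The labelled cell type was checked against B-lineage markers. Of the 9 that were measured, 8 (Cd79a, Cd79b, Cd22, Cd72, Blnk, Ebf1, Pax5 and Blk) had means between 11.09 and 13.61 at 0 h and SDs of at most 0.24. The exception was Ms4a1, which encodes CD20, a marker acquired as B cells mature, and it averaged 9.58 ± 2.20 (SD, n = 5). Array medians over all probe sets lay between 7.28 and 7.44, and the values of 1 array, that of culture 5 at 0 h, were the least spread (interquartile range over named genes 2.97, others 3.36 to 3.75). Every comparison with 0 h below shares the same 5 untreated arrays.

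**Figure D1:**
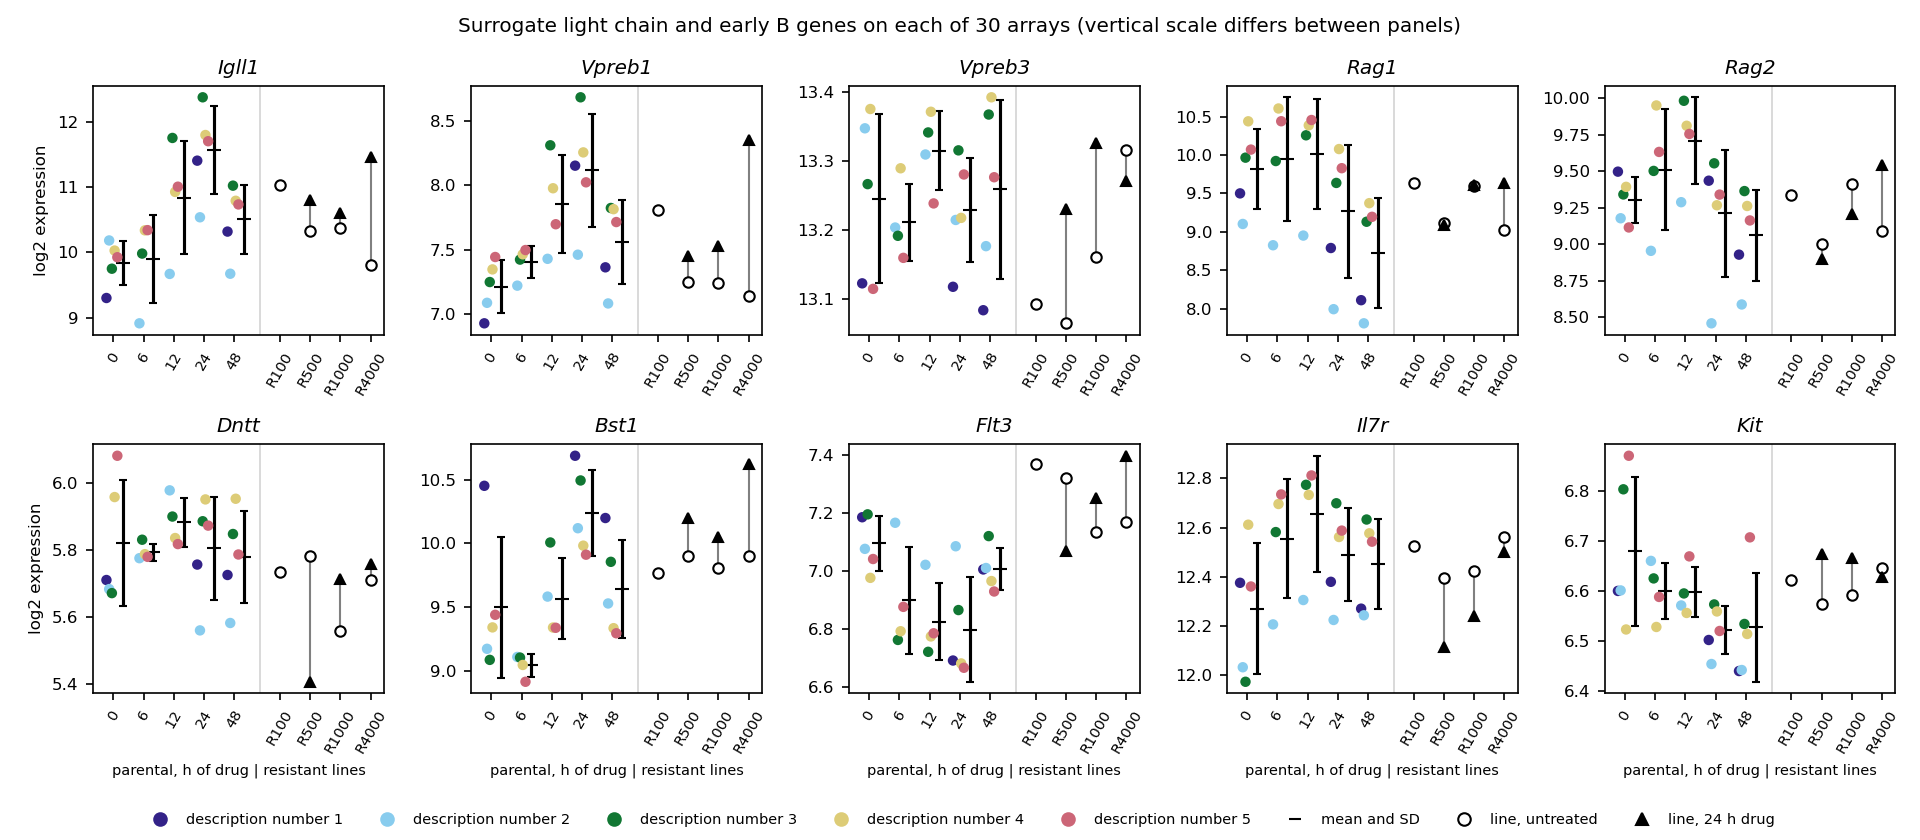
Log2 expression of each gene on each of the 30 arrays; the vertical scale differs between panels. Coloured points are parental arrays by culture number, bars are mean and SD, open circles are untreated resistant lines and triangles the same lines after 24 h of drug. The 24 h Igll1 values, 10.54 to 12.38, lie above all 0 h values, 9.30 to 10.18.

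Transcripts of both parts of the surrogate light chain rose in the parental cells within 24 h of mafosfamide. Igll1 was 3.31-fold higher and Vpreb1 1.87-fold higher at 24 h than at 0 h, and Bst1 was 1.67-fold higher. Flt3 was 1.23-fold lower. These 4 of the 10 members passed limma's test at an adjusted p of 0.05, 3 higher and 1 lower, where 6.78% of all genes passed, 4.35% higher and 2.43% lower. That fit did not pair the arrays by culture number. With the culture number as a block 6 members passed, where 23.6% of genes did. The median change was -0.02 over the 10 members and -0.04 over all genes tested.

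Igll1 measured 9.30, 10.18, 9.75, 10.03 and 9.93 in the 0 h cultures numbered 1 to 5. At 24 h the same numbers measured 11.41, 10.54, 12.38, 11.80 and 11.70. All 24 h values lay above all 0 h values, which was so for 4.57% of genes in either direction. The difference was 1.73 (SE 0.36, limma adjusted p = 0.00843). By culture number it was 2.10, 0.36, 2.63, 1.77 and 1.78, so that culture 2 rose least.

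Vpreb1 gave 6.93, 7.09, 7.25, 7.35 and 7.44 at 0 h. At 24 h it gave 8.15, 7.46, 8.68, 8.25 and 8.02, again with no overlap. The difference was 0.90 (SE 0.19, limma adjusted p = 0.00829), and culture 2 again rose least, by 0.37. With each array of the 0 h and 24 h groups left out in turn, Igll1 and Vpreb1 passed the test in 10 of 10 fits.

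Igll1 and Vpreb1 had intermediate means at 12 h and at 48 h. At 12 h the cultures numbered 2 to 5 gave Igll1 values of 9.67, 11.75, 10.93 and 11.01, and culture 2 lay within the 0 h range. Vpreb1 gave 7.43, 8.31, 7.98 and 7.70. The 12 h differences from 0 h, 1.00 (SE 0.38, adjusted p = 0.326) for Igll1 and 0.64 (SE 0.20, adjusted p = 0.188) for Vpreb1, did not pass limma's test. No member did at 12 h, where 0.512% of genes passed; at an unadjusted p under 0.05 there were 4 (Igll1, Vpreb1, Flt3 and Il7r) and 11.9% of genes. With the culture number as a block 3 members passed at 12 h, Igll1, Vpreb1 and Il7r, where 3.55% of genes did. The numbers were not taken as pairs for that comparison, since correlations of deviations between equal numbers reached down to 0.08. At 6 h Igll1 gave 8.91, 9.98, 10.34 and 10.34, a range that encloses the 0 h values, and none of the 10 members passed limma's test, against 0.0201% of genes. At an unadjusted p under 0.05 there was 1, Flt3 (change -0.20, SE 0.09), and 5.13% of genes. With the culture number as a block no member passed at 6 h either, where 62 of 19937 genes did.

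At 48 h Igll1 measured 10.32, 9.67, 11.02, 10.79 and 10.74, below its 24 h value in each of the 5 cultures. The 48 h mean was 0.67 above 0 h (SE 0.36, adjusted p = 0.452) and 1.06 below 24 h. Written as a change from 24 h to 48 h this was -1.06 for Igll1 and -0.55 for Vpreb1 (adjusted p = 0.522 and 0.518), and no member passed limma's test, against 0.105% of genes. At an unadjusted p under 0.05 there were 4 members (Igll1, Vpreb1, Bst1 and Flt3) and 6.77% of genes.

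Cultures of the same number deviated together between these groups, and the pairing changed the outcome here. With the culture number as a block, limma called 4 members lower at 48 h than at 24 h, where 1.04% of genes were called. These were Igll1 (-1.06, SE 0.24, adjusted p = 0.0356), Vpreb1 (-0.55, SE 0.12, adjusted p = 0.0312), Bst1 (-0.60, SE 0.12, adjusted p = 0.0243) and Rag1 (-0.54, SE 0.10, adjusted p = 0.0149). Each of the 4 was lower in 5 of 5 cultures. Direction was the same in every culture for 18.6% of genes in that comparison.

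Vpreb3 did not follow Igll1 and Vpreb1. It measured 13.12, 13.35, 13.27, 13.38 and 13.11 at 0 h and 13.12, 13.21, 13.32, 13.22 and 13.28 at 24 h. The groups overlapped and the difference was -0.02 (SE 0.07, adjusted p = 0.885). Over all 5 parental times its group means stayed between 13.21 and 13.32. Its 0 h values averaged percentile 99.5 of the array, and whether so high a signal can still show a rise was not tested.

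Bst1 measured 10.45, 9.17, 9.09, 9.34 and 9.44 at 0 h, with culture 1 far above the others. At 24 h it measured 10.69, 10.12, 10.50, 9.98 and 9.91, higher than its own 0 h value in each of the 5 cultures although the groups overlapped. The difference was 0.74 (SE 0.22, limma adjusted p = 0.0453). It lost the threshold in 8 of the 10 fits that left out 1 array, keeping it only without the 0 h array of culture 1 or the 24 h array of culture 5. With the culture number as a block its adjusted p was 0.000646.

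Flt3 measured 7.18, 7.08, 7.19, 6.98 and 7.04 at 0 h. At 24 h it gave 6.69, 7.08, 6.86, 6.68 and 6.67, lower in 4 of 5 cultures, with culture 2 at its 0 h level. The difference was -0.30 (SE 0.09, limma adjusted p = 0.0449). It too lost the threshold in 8 of 10 fits with 1 array left out, the exceptions being the 0 h array of culture 4 and the 24 h array of culture 2. At 48 h Flt3 was between 6.93 and 7.12, a difference of -0.09 from 0 h (SE 0.09, limma adjusted p = 0.646). The 0 h mean of Flt3, 7.09, lay within the range of the T cell markers given below, 5.69 to 7.45.

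**Figure D2:**
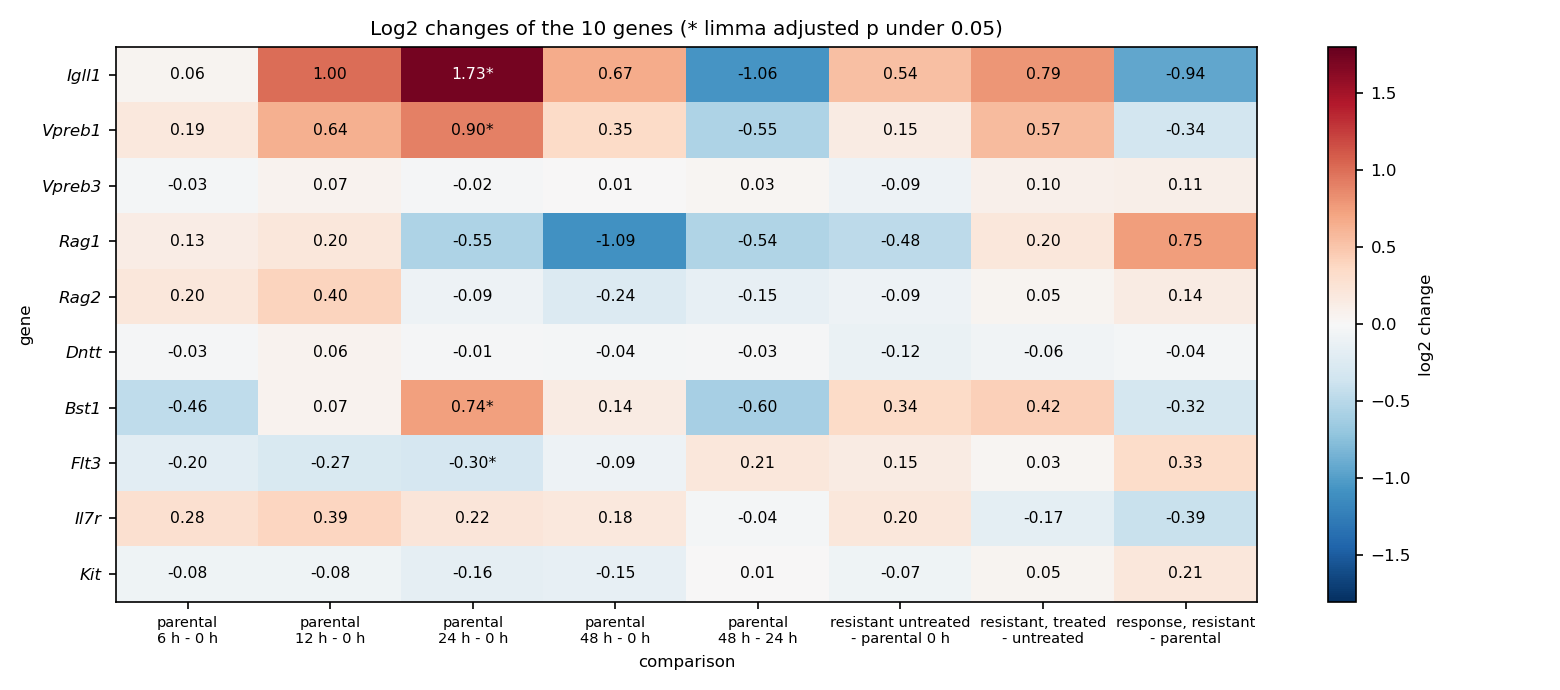
Log2 change of each gene in 8 comparisons, in rows by gene, with blue lower and red higher; an asterisk marks a limma adjusted p under 0.05. Marks stand only in the 24 h column, on Igll1 (1.73), Vpreb1 (0.90), Bst1 (0.74) and Flt3 (-0.30).

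Rag1 values lay lower at the late times, where those of Igll1 and Vpreb1 lay higher. Rag1 measured 9.50, 9.10, 9.97, 10.44 and 10.07 at 0 h, and at 12 h the cultures numbered 2 to 5 gave 8.95, 10.26, 10.39 and 10.46. At 24 h the values were 8.79, 7.99, 9.64, 10.08 and 9.83. At 48 h they were 8.11, 7.81, 9.13, 9.37 and 9.20, and the highest of these lay within the 0 h range.

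The change of Rag1 from 0 h was -0.55 at 24 h (SE 0.42, adjusted p = 0.37) and -1.09 at 48 h (SE 0.42, adjusted p = 0.35). Neither passed limma's test without a block, and no member did at 48 h, where 0.251% of genes passed. At an unadjusted p under 0.05 there were 2 members at 48 h, Rag1 and Kit, and 11.7% of genes. The SD of Rag1 between cultures was 0.52 at 0 h and 0.86 at 24 h. Each of the 5 cultures was lower at 24 h than at 0 h, which held in 1 direction or the other for 20.7% of genes. Each was also lower at 48 h than at 0 h, by 0.84 to 1.39, and 13.6% of genes kept 1 direction there. With the culture number as a block both changes passed, at -0.55 at 24 h (SE 0.10, adjusted p = 0.0017) and -1.09 at 48 h (SE 0.10, adjusted p = 1.53e-05). For 48 h against 0 h the numbers were not taken as pairs, since correlations of deviations between equal numbers reached down to 0.065. This limits both the direction by culture and the blocked fit there. At 48 h Rag1 was the only member that passed in the blocked fit, where 3.28% of genes did. At 24 h 6 members passed in it, namely Igll1, Vpreb1, Bst1, Flt3, Rag1 and Kit (-0.16, SE 0.06, adjusted p = 0.0479), where 23.6% of genes passed.

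Rag2, which is transcribed from the neighbouring gene, had a smaller range. It gave 9.50, 9.18, 9.34, 9.39 and 9.12 at 0 h and 8.93, 8.59, 9.37, 9.26 and 9.16 at 48 h, and these overlapped. The change was 0.40 at 12 h (SE 0.21, adjusted p = 0.446) and -0.24 at 48 h (SE 0.20, adjusted p = 0.579). Dntt stayed between 5.41 and 6.08 on all 30 arrays, below 6.28, the 25th percentile of all values of the named genes. None of its changes passed the test in any comparison.

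Among the cytokine and growth factor receptors, Il7r measured 12.38, 12.03, 11.97, 12.61 and 12.36 at 0 h. At 12 h the cultures numbered 2 to 5 measured 12.31, 12.77, 12.73 and 12.81, and the change was 0.39 (SE 0.14, adjusted p = 0.308). Its change at 24 h was 0.22 (SE 0.13, adjusted p = 0.262). Kit lay between 6.44 and 6.87 on the parental arrays, and its change at 24 h was -0.16 (SE 0.07, adjusted p = 0.126) without the block. Neither receptor passed limma's test at any time with every array and no block. The 12 h change of Il7r passed with the culture number as a block (0.37, SE 0.09, limma adjusted p = 0.0344), though the numbers were not taken as pairs there. It also passed without cultures 1 and 2 (0.46, SE 0.12, limma adjusted p = 0.0459), where 4.23% of genes passed.

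The spread of Rag1 between cultures ran with Ms4a1, which was singled out after its values were seen. Culture 2 had the lowest Rag1 value at each of the 5 times, and culture 1 the second lowest at each of its 3 times. Ms4a1 lay between 11.99 and 12.41 in culture 2 and between 11.33 and 11.70 in culture 1, and in cultures 3, 4 and 5 it lay between 6.88 and 10.04. Igll1 showed a different order, since culture 2 had the highest Igll1 value at 0 h and the lowest at every later time. Whether cultures hold different mixtures of cells or cells with different RNA levels cannot be told apart in bulk samples.

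**Figure D3:**
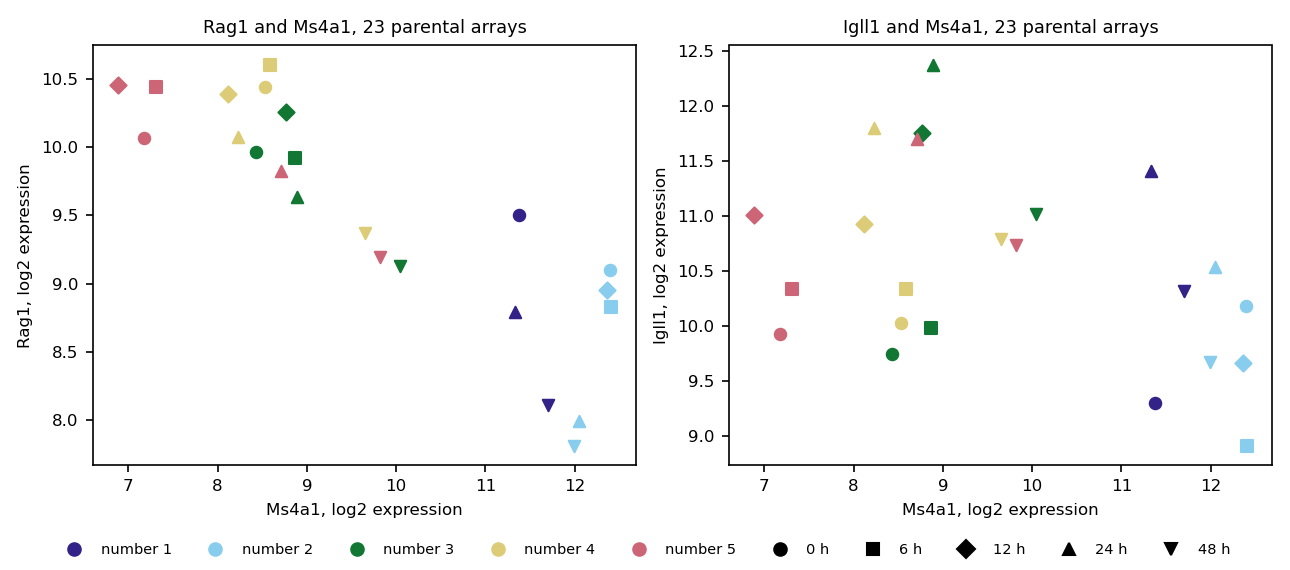
Log2 expression of Rag1 (left) and Igll1 (right) against Ms4a1 on the 23 parental arrays; colours are culture numbers and symbols times. Cultures 1 and 2 form a group at Ms4a1 values of 11.33 to 12.41, with Rag1 at or below 9.50.

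Within each time, deviations from the group mean were set against each other over the 23 parental arrays, which share culture numbers and are not independent. The correlation of Igll1 with Vpreb1 was 0.87, and 0.85 over the 15 arrays of cultures 3, 4 and 5. For Igll1 with Rag1 it was 0.80 over all parental arrays and -0.03 without cultures 1 and 2, so that this relation rested on those cultures. Igll1 and Bst1 gave -0.08 over all and 0.84 without them. All calls at 24 h were present without cultures 1 and 2: Igll1 was 2.06 higher (SE 0.21, adjusted p = 0.000129), Vpreb1 0.97 higher (SE 0.16, adjusted p = 0.00261), Bst1 0.84 higher (SE 0.20, adjusted p = 0.0198), and Flt3 changed by -0.33 (SE 0.08, adjusted p = 0.0193), where 11% of genes passed.

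Feeder markers also moved with treatment. Of 28 measured fibroblast markers, 26 were above their 0 h level at 24 h and 15 passed the test, with a median change of 0.86. Their mean level per array ranged from 7.87 to 8.41 at 0 h and from 8.14 to 9.73 at 24 h, and averaged 8.42 ± 0.50 (SD, n = 5) at 48 h. With this mean as a covariate Igll1 and Vpreb1 were 2.50 (SE 0.41, adjusted p = 0.00156) and 1.34 higher (SE 0.20, adjusted p = 0.000867) at 24 h, larger than without it. Bst1 (0.70, adjusted p = 0.238) and Flt3 (-0.27, adjusted p = 0.262) did not pass in this fit, where 2.39% of all genes did, and Rag1 changed sign, to 0.11 (SE 0.51, adjusted p = 0.921). With both the block and the covariate Igll1, Vpreb1 and Bst1 passed, Bst1 at 0.98 (SE 0.19, adjusted p = 0.00391), where 9.7% of genes did. In that fit Flt3 was -0.18 (SE 0.11, adjusted p = 0.297) and Rag1 -0.32 (SE 0.16, adjusted p = 0.18).

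**Figure D4:**
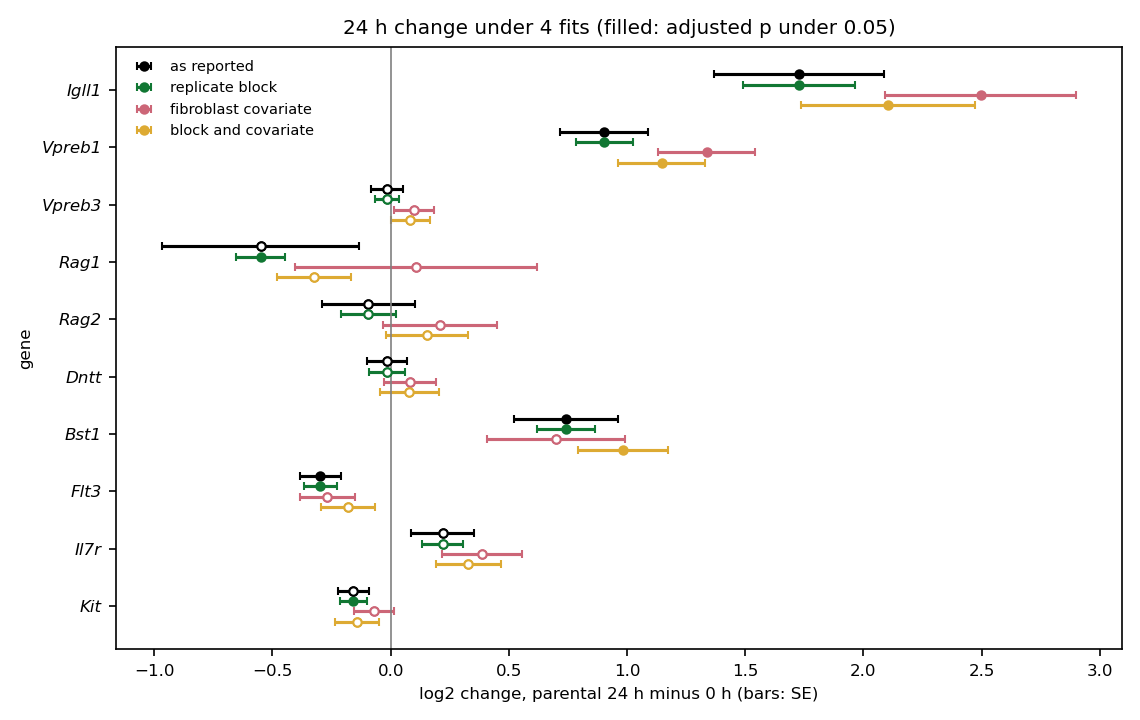
Log2 change from 0 h to 24 h (horizontal axis, bars are SE) of each gene in 4 limma fits; filled points have an adjusted p under 0.05. Igll1 (1.73 to 2.50) and Vpreb1 (0.90 to 1.34) are filled in all 4, and Rag1 only with the culture block.

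Markers of other cells that can express these receptors were read beside them. The 11 measured T cell markers averaged from 5.69 (Cd3d) to 7.45 (Lat) at 0 h, and none passed the test at 24 h. The 0 h means of Flt3 (7.09), Kit (6.68) and Vpreb1 (7.21) lay within that range, so their untreated signal was low. Of 12 myeloid markers 1 passed, Tyrobp (0.82 higher, SE 0.18, adjusted p = 0.0126), and of 9 mast and stem cell markers 1 passed, Mecom (0.71 higher, SE 0.19, adjusted p = 0.0338). The 9 mast and stem cell markers averaged from 4.88 (Fcer1a) to 7.55 (Tal1) at 0 h, with the mast cell genes Cpa3 at 4.90 and Tpsb2 at 6.85. Their part in the values of Flt3, Kit and Bst1 was not tested.

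The calls among the other genes of these pathways were read against the 6.78% of all genes that passed at 24 h. Of 14 measured genes of the pre-B receptor and its signalling, 2 rose at 24 h: Ccnd3, the cyclin that pre-B cells need for expansion (0.39, SE 0.09, adjusted p = 0.0129), and Plcg2, which relays receptor signals to calcium (0.19, SE 0.05, adjusted p = 0.0309). The median change of the list was 0.03. Of 11 partners in V(D)J end joining, 2 rose. They were Prkdc, a kinase that acts in end joining (0.67, SE 0.14, limma adjusted p = 0.00929), and Atm, a kinase activated by DNA breaks (0.40, SE 0.12, limma adjusted p = 0.0409). Hmgb2, a DNA-bending cofactor of the recombinase, fell by 0.26 (SE 0.07, adjusted p = 0.0402).

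None of 14 genes of the cytokine receptor pathway passed at 24 h. None of 22 early B transcription factors passed at 24 h either, and at 48 h Ebf1, which directs B-lineage commitment, fell by 0.37 (SE 0.07, adjusted p = 0.0211). Of 12 other early B surface and stage genes, Spn, which encodes CD43, was 0.31 higher at 24 h (SE 0.09, adjusted p = 0.048) and Cxcr4, the receptor that holds B cell precursors in the marrow, fell by 0.55 (SE 0.12, adjusted p = 0.0135). The 5 lists gave no other call in any of the comparisons, the resistant lines included.

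In the untreated resistant lines the Igll1 and Vpreb1 values were highest in R100. Igll1 was 11.03 in R100, 10.32 in R500, 10.37 in R1000 and 9.80 in R4000, against a parental 0 h range of 9.30 to 10.18. The first 3 lines lay above that range and R4000 inside it. The mean difference was 0.54 (SE 0.23, limma adjusted p = 0.644). Vpreb1 was 7.81 in R100, above the parental range of 6.93 to 7.44, and 7.25, 7.25 and 7.14 in the other lines, within it.

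Rag1 was 9.63, 9.11, 9.59 and 9.02 in R100, R500, R1000 and R4000, of which only R4000 lay below the lowest parental 0 h value of 9.10. The mean difference was -0.48 (SE 0.24, adjusted p = 0.756). Bst1 lay between 9.77 and 9.90 in the lines and Il7r between 12.39 and 12.56, both within the parental ranges. For Bst1 this rests on the 0 h array of culture 1 (10.45), as the other 0 h values, 9.09 to 9.44, lay below all lines. Flt3 was 7.37 in R100 and 7.32 in R500, above the parental maximum of 7.19, and 7.13 and 7.17 in R1000 and R4000. None of the 10 members passed the test between the 4 lines and the parental cells, where 0.0752% of genes passed, and no member had values free of overlap, which 3.65% of genes had. At an unadjusted p under 0.05 there was 1 member, Igll1, and 7.1% of genes.

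Along the order of resistance, from parental through R100 to R4000, no gene passed limma's test of the slope (0% of genes; at an unadjusted p under 0.05 none of the members and 4.36% of genes). Rag1 had the steepest slope of the members, at -0.18 per step (SE 0.08, adjusted p = 0.881). The covariance of each probe set with that order, the ranking used for these lines in the study's methods, placed Rag1 at position 482 from the bottom of 34760 probe sets. No other member was among the first or last 1000. With the dose in nM in place of the order, Rag1 was 750 and Igll1 703 from the bottom. The limma slope of Igll1 on the order had the other sign, at 0.06 per step (SE 0.09, limma adjusted p = 0.905). It kept that sign in all 16 alternatives. The covariance uses the parental 0 h mean and 1 array of each line, so the position of Igll1 by dose leans on the R4000 array. Along the order of the 5 parental times Igll1 was 63 from the top, Bst1 502 and Vpreb1 558, and Rag1 was 37 from the bottom. With hours in place of the order, Igll1 was 151 and Bst1 659 from the top, Vpreb1 was outside the first 1000 at 1426, and Rag1 was 3 and Rag2 372 from the bottom.

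After 24 h of drug, Igll1 had a higher value in each of the 3 lines measured, going from 10.32 to 10.80 in R500, from 10.37 to 10.60 in R1000 and from 9.80 to 11.47 in R4000. Vpreb1 went from 7.25 to 7.45, from 7.25 to 7.53 and from 7.14 to 8.35. Bst1 went from 9.90 to 10.20, from 9.81 to 10.05 and from 9.90 to 10.62. A direction shared by all 3 lines was seen for 36% of genes. For each of these genes the largest step was in R4000. The Igll1 steps did not follow the selecting dose, at 0.48 in R500, 0.23 in R1000 and 1.66 in R4000. The R4000 pair, 1 array each, also differed in Ms4a1, which went from 10.49 to 8.19 there and rose in R500 and R1000. Its mean of the fibroblast markers went from 8.26 to 7.67, a larger fall than in R500 or R1000. Whether the drug or another difference between the arrays gave the larger steps in R4000 was not tested.

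The mean change within lines was 0.79 for Igll1 (SE 0.37, limma adjusted p = 1), 0.57 for Vpreb1 (SE 0.25, adjusted p = 1) and 0.42 for Bst1 (SE 0.29, adjusted p = 1). No member passed, against 0.0301% of genes, and at an unadjusted p under 0.05 there was 1 member, Vpreb1, and 2.9% of genes. The fit also held the parental arrays at 0 h and 24 h, unpaired, so these SEs rest mostly on the spread between parental cultures. With the arrays of the 3 lines alone no member passed either, where 76 of 19937 genes did. Rag1 went from 9.11 to 9.10, from 9.59 to 9.60 and from 9.02 to 9.64, a mean change of 0.20 (SE 0.45). Of 28 fibroblast markers 2 had a change above 0 in the lines, and their median change was -0.20.

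The response of the lines was compared directly with that of the parental cells. The difference in response, resistant minus parental, was -0.94 for Igll1 (SE 0.47, limma adjusted p = 0.654), -0.34 for Vpreb1 (SE 0.32, adjusted p = 0.773), 0.75 for Rag1 (SE 0.57, adjusted p = 0.724) and 0.33 for Flt3 (SE 0.16, adjusted p = 0.645). No gene on the array passed this test (0%), and at an unadjusted p under 0.05 none of the members and 7.83% of genes did. This fit therefore did not separate the response of the lines from that of the parental cells for any member. It did not pair the parental arrays by culture number, and no fit of this difference with that block was run.

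Over the means of the 12 groups, the genes whose pattern was most like that of Igll1 were Gas7 (Pearson r = 0.97), Vpreb1 (0.91), Sla2 (0.88), Dglucy (0.86) and Casp1 (0.86). For Rag1 they were Acbd3 (0.87), Rag2 (0.85), Fcrl5 (0.85), Ppp1r26 (0.82) and Pkd1l1 (0.81). Apart from Rag2 (range of the means 0.81) these moved little. The means of Acbd3, Fcrl5, Ppp1r26 and Pkd1l1 ranged over 0.20, 0.27, 0.36 and 0.18, against 1.29 for Rag1. In the parental cells the mean of Gas7 was 8.94 untreated, 10.28 after 24 h and 9.51 after 48 h of drug. Igll1 and Rag1 themselves had a correlation of -0.01 over the same 12 means. These values describe the groups, of which 7 rest on 1 array.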

How the data were processed

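Mouse lymphoma RNA was hybridized to Affymetrix Mouse Gene ST 1.0 arrays. The authors summarized probe sets by robust multi-array averaging (justRMA of the affy package) and deposited log2 values; the submitters' notes name RMA, affy and mm9. Quantile normalization forces a common distribution, so changes in total RNA are not visible. Small changes at low signal may also be compressed on arrays. Precision depends on the number of arrays, as no read depth exists.

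The table held 34760 probe sets, of which 21640 had 1 gene symbol in the platform annotation, 1321 several, and 11799 were unnamed and not used. A gene was represented by its probe set of highest mean, which gave 19937 genes. Groups came from the sample labels. limma 3.58.1 (R 4.3.3; lmFit and eBayes) was fitted on all 23 parental arrays, on the 5 parental 0 h arrays and 4 untreated lines, and on 16 arrays with a term per line for the responses, with Benjamini-Hochberg adjustment over all genes and a threshold of 0.05.

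Culture numbers were those of the sample descriptions, and the titles number the 6 h and 12 h arrays differently. Deviations of equal description numbers had a median correlation of 0.40, against 0.17 for equal title numbers. Correlations of deviations between equal numbers were at least 0.31 for 6 h, 0.13 for 24 h (both with 0 h) and 0.39 for 48 h with 24 h. They reached down to 0.08 for 12 h and 0.06 for 48 h with 0 h. The numbers were therefore taken as pairs for 6 h and 24 h against 0 h and for 48 h against 24 h only. The limma fits reported first had no block even there, and the fits with the block are given beside them.

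Genes were named by rule: the 10 members, up to 3 called genes per pathway list and comparison, and the 5 genes most correlated with Igll1 and Rag1. The members and lists were chosen with earlier results of these data known. Alternatives were other centring, leaving out dim genes, averaging probe sets, array weights, the compared groups alone, the block, a fibroblast covariate and leaving out each array. The block with the covariate and the removal of cultures 1 and 2 were added after seeing the data. Promoters came from a RefSeq table (GRCm38.p6); that build differs from mm9, and no array coordinates were used.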

Additional observations from a re-analysis of the deposited data

Results flagged for a closer look

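Of 50 sets of 4 or 5 parental arrays (10 genes at 5 times), 4 held an array whose gap to the nearest other array was a large share of the group's range by Dixon's test; chance gives about 1 in 20. At 12 h Rag1 was 8.95 in culture 2, with the next value at 10.26. At 24 h Rag2 was 8.46 in culture 2, with the next at 9.27. At 12 h Il7r was 12.31 in culture 2, with the next at 12.73. At 0 h Bst1 was 10.45 in culture 1, with the next at 9.44. Thus 3 of the 4 lay in culture 2.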

How the results depend on the processing

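Counts of members called moved as follows. At 24 h, 4 members were called as reported, 2 with the fibroblast covariate (Igll1 and Vpreb1) and 1 with the compared groups alone (Igll1, Vpreb1 having an adjusted p of 0.0558), and 2 to 3 with each array left out. The count was 2 without replicates 2, 3 or 5 of 0 h and 1, 3 or 4 of 24 h. Of all 19937 genes, 1351 were called as reported at 24 h, 477 with the covariate and 122 with the compared groups alone. With 1 array left out, 524 to 2678 were called. At 12 h the count of members went from 0 to 1 with array weights and with the fibroblast covariate (Vpreb1 in both). It was 3 with the replicate block (Igll1 0.93, Vpreb1 and Il7r, lowest limma adjusted p 0.014). It was 4 with block and covariate, and 5 without cultures 1 and 2. Of all genes 102 were called as reported at 12 h, 279 with array weights, 191 with the covariate and 708 with the block. With block and covariate 1515 were called, and 844 without cultures 1 and 2. At 48 h against 0 h the count of members went from 0 to 1 with the block (Rag1, -1.09, limma adjusted p = 1.5e-05). It was 2 with block and covariate and 2 without cultures 1 and 2. Of all genes 50 were called as reported there, 654 with the block, 1413 with block and covariate and 773 without cultures 1 and 2. The culture numbers were not taken as pairs for this comparison or at 12 h. From 24 h to 48 h the count of members went from 0 to 2 with array weights. It was 4 with the block and 4 with block and covariate. Of all genes 21 were called as reported there, 700 with array weights, 208 with the block and 105 with block and covariate. At 6 h and in the resistant lines no alternative called a member. Among members in the first or last 1000 by covariance along resistance, the count went from 1 to 2 with dose in nM. Of 32 changes followed under every alternative, 1 reversed: Rag1 at 24 h with the fibroblast covariate, at 0.11. The other 58, with unadjusted p of at least 0.1 and no call in any fit, included 24 that changed sign in some alternative, of which the largest was 0.203 in size as reported. The causes were not tested. Dim signal limits Dntt, which the filter on dim genes removed. Low signal also limits Flt3, Kit and, at 0 h, Vpreb1, whose 0 h means lay within the range of the T cell markers.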
